A study of Rattus norvegicus with 10 samples.

Results

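The third complementarity-determining region (CDR3) of the immunoglobulin heavy chain was read in spleen cells of 10 Wistar rats, and 301 CDR3s were found in animals of both immunogen groups. The DNP group, DNP1 to DNP5, held 5 animals immunized with keyhole limpet hemocyanin modified with dinitrophenyl residues (DNP), and the HuD group, HuD1 to HuD5, held 5 animals immunized with recombinant human HuD, a neuronal RNA-binding protein that is also an onconeural antigen. Every animal received its immunogen in complete Freund's adjuvant and then 3 boosts in incomplete adjuvant, and no animal without immunization is among the samples. Each animal gave 1 library from RNA of the whole spleen cell suspension, primed on the constant domain with a random tag and amplified by multiplex PCR. A CDR3 was counted as shared by both groups when its amino acid sequence was found, with at least 1 productive read, in at least 2 DNP and at least 2 HuD animals. The CDR3s were thus chosen by the presence of reads in the same 10 animals. This rule left 301 of 215200 unique CDR3s, or 0.140%, and 25718 of 1615896 productive reads, or 1.59%. One read stands for all sequenced copies with the same tag, and read numbers scaled to 1000000 productive reads of the animal are written RPM.

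The CDR3 is the part of the heavy chain where the IGHV, IGHD and IGHJ gene segments are joined, and bases are trimmed and added at both joints. It is usually the most variable loop of the antigen binding site. A CDR3 that arises in several animals, often called a public CDR3, is known to be short and close to the germline segments in many species. In RNA from whole spleen, more B cells with a CDR3 and more transcripts per cell cannot be told apart, since plasma cells hold far more immunoglobulin RNA than resting B cells.

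The sequences that carry the main results are given here, because length, shared ends and the joined genes can be read from them. Letters are amino acids of the CDR3 in the IMGT definition.
Found in all 10 animals, IGHV5-20 most often: TTGDY.
Found in all 10 animals, IGHV5-7 most often: ARHWYFDF.
Found in all 10 animals, IGHV4-2 most often: ARGDY.
Most reads, nearly all of them in DNP animals: ARPDY.
Most reads of a HuD animal: ARHWGY.
Highest RPM, 1 DNP animal: ARWYNSGYYFDY.
Longest member with many reads, IGHJ4: ARLRLEWEVRAMDA.
Found in 8 animals, most reads in HuD1, NSGY in the centre: ATHNSGYFDY.
Most reads in DNP2, also in HuD2 and HuD3, NSGY in the centre: ASHNSGYFDY.
Family joined to IGHV4-2: VREAFGVDY.
Family joined to IGHV4-2: VREELGVDY.
Joined to IGHV6-6 in nearly all reads: AWTGY.
Joined to IGHV6-6 in nearly all reads: AWPGD.
Joined to IGHV1-43 in nearly all reads: ARDYSGGGFAY.

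The libraries held 60647 productive reads in DNP3 to 259834 in DNP4, and 81.7% of the productive reads of HuD4 to 87.8% of those of DNP2 rested on a single sequenced copy. The deepest and the shallowest library were both in the DNP group, so that 1 read was worth 16.5 RPM in DNP3 and 3.85 RPM in DNP4. Tags consist of a section of the sequence and random bases, and 3372 productive reads had a tag that was read with the same CDR3 in another animal, 1797 of them in shared CDR3s. Without such reads 298 CDR3s remained under the rule.

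Most shared CDR3s were only just widespread enough for the rule. Of the 301, 97 were found in 4 animals, 87 in 5, 47 in 6, 32 in 7, 24 in 8, 11 in 9 and 3 in all 10. Of all unique CDR3s, 209957 (97.6%) were found in 1 animal. At least 4 animals held 570 CDR3s, and 52.8% of these were shared by both groups. For comparison, 1638 CDR3s were found in at least 2 HuD animals and no DNP animal, and 1095 in at least 2 DNP animals and no HuD animal. Just inside the threshold, the 97 CDR3s of exactly 2 DNP and 2 HuD animals had a median of 7 reads. Just outside it stood 211 CDR3s of 2 DNP and 1 HuD animal, with a median of 5 reads, and 291 of 1 DNP and 2 HuD animals, with a median of 4 reads. These reads were part of the choice and are a description.

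The number of shared CDR3s depended on single reads. A shared CDR3 was present 1650 times over the 10 animals, and 801 of these occurrences (48.5%) rested on 1 read. With at least 2 reads required in an animal, 62 CDR3s were shared, and with at least 3 animals of each group, 76. Without DNP4, the deepest library, 199 were shared, and without DNP3, the shallowest, 275. When every library was thinned to the 60647 reads of DNP3, a mean of 87.2 was left over 5 draws. Only 16% of the productive reads had at least 2 sequenced copies, and among these reads alone 3 CDR3s met the rule, TRENWVLDY, VREAFGVDY and VREELGVDY.

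The sets were also tried on an animal that took no part in choosing them. The rule was applied to 9 animals, and the CDR3s so chosen, 199 to 275, were looked for in the left-out one. In DNP1 to DNP5 43.6%, 36.9%, 14.5%, 56.3% and 39.4% of them were found. In HuD1 to HuD5 41.7%, 57.8%, 42.8%, 52.5% and 46.5% were found. The groups overlapped, and the mean was 10.1 percentage points higher in the HuD animals (exact permutation test over all choices of 5 of the 10 animals, two-sided, p = 0.206, smallest possible p 0.00794). DNP3 was the lowest by far with 40 of 275 CDR3s (95% Wilson interval 10.9% to 19.2%, counting error only), and it is also the shallowest library. At equal reads the means were 42.8% ± 5.15 (SD, n = 5) in the HuD and 35.7% ± 8.01 (SD, n = 5) in the DNP animals (exact permutation p = 0.119). Without DNP4 the difference was 16.5 percentage points (exact permutation p = 0.0159), and without DNP3 it was 1.40 (exact permutation p = 0.810).

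CDR3s that had been shared only within 1 group were found less often in the left-out animal. Those of at least 2 animals of its own group and none of the other were found at 3.75% in DNP2 to 21.3% in HuD2. Those of the other group alone were found at 1.15% in DNP3 to 8.90% in DNP2. In 9 of 10 animals the CDR3s of the own group came back more often than those of the other group, with DNP2 as the exception, at 3.75% against 8.90%. These sets rest on fewer animals than the sets of both groups, so that the percentages are given side by side.

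**Figure D1:**
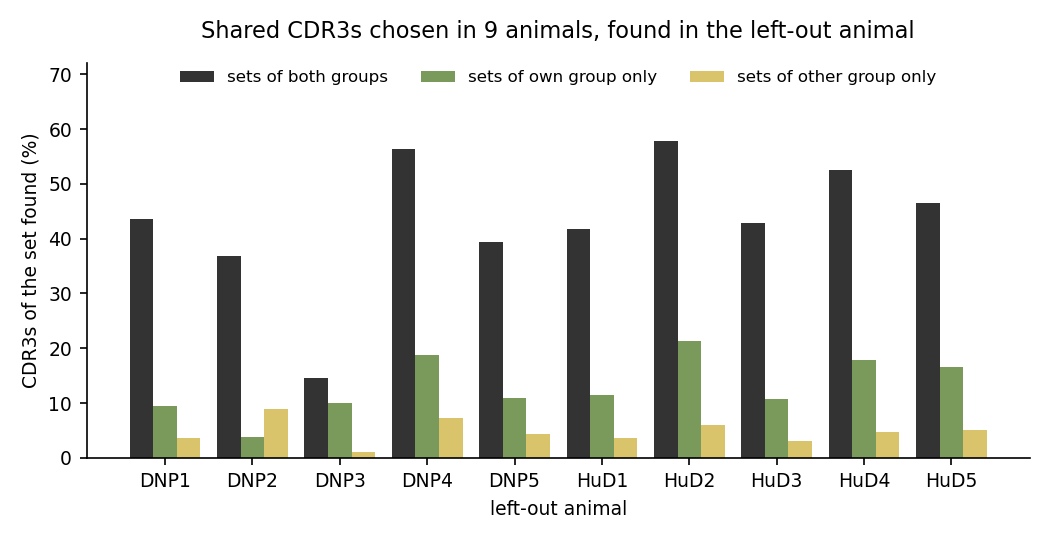
Percent of a set of CDR3s, chosen in 9 animals, that was found in the left-out animal (x axis), for sets shared by both groups (black), by at least 2 animals of the own group alone (green) and by at least 2 animals of the other group alone (yellow). The black bars run from 14.5% in DNP3 to 57.8% in HuD2 and are the highest in each animal.

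Shared CDR3s were short. Their mean length was 7.81 ± 2.33 residues (SD over 301 CDR3s), from 5 to 15, against 12.2 ± 2.97 over all unique CDR3s. CDR3s of the HuD animals alone had a mean of 9.46 residues, those of the DNP animals alone 10.2, and those of 1 animal 12.3. CDR3s just outside the rule were about as short as those just inside it. The mean was 8.40 residues for exactly 2 DNP and 2 HuD animals, 8.39 for 2 DNP and 1 HuD animal and 8.49 for 1 DNP and 2 HuD animals. It was 7.91 for 3 or more DNP and 1 HuD animal and 8.13 for 1 DNP and 3 or more HuD animals. Within each animal the shared CDR3s present in it were compared with its other CDR3s, each sequence counted once. Means of the shared ones lay between 7.49 and 7.92 residues and those of the others between 11.6 and 12.6, so that the ranges over animals did not overlap. The mean difference was −4.38 residues and negative in 10 of 10 animals (exact sign-flip permutation test, two-sided, p = 0.00195, the smallest possible). It was −4.27 in the DNP and −4.50 in the HuD animals (exact permutation p of this contrast 0.278). The same shared CDR3s recur in several animals, so that these within-animal differences are not independent.

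The share of unique CDR3s that were common to both groups fell with each added residue from 5 to 15. It was 2.71% at 5 residues, 1.14% at 6, 0.74% at 7, 0.429% at 8, 0.341% at 9 and 0.109% at 10. At 12 residues, the commonest length of all, 12 of 32412 CDR3s were shared (0.037%). None of the 27271 CDR3s over 15 residues and none of the 213 under 5 residues was shared. CDR3s of 5 to 9 residues made up 80.4% of the shared ones, and CDR3s of at most 9 residues 17.3% of all. The mean length was 8.40 residues for shared CDR3s of 4 animals, 7.72 for 5, 7.23 for 6, 7.78 for 7, 7.25 for 8 and 7.64 for 9, and 6.00 for the 3 found in all 10.

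**Figure D2:**
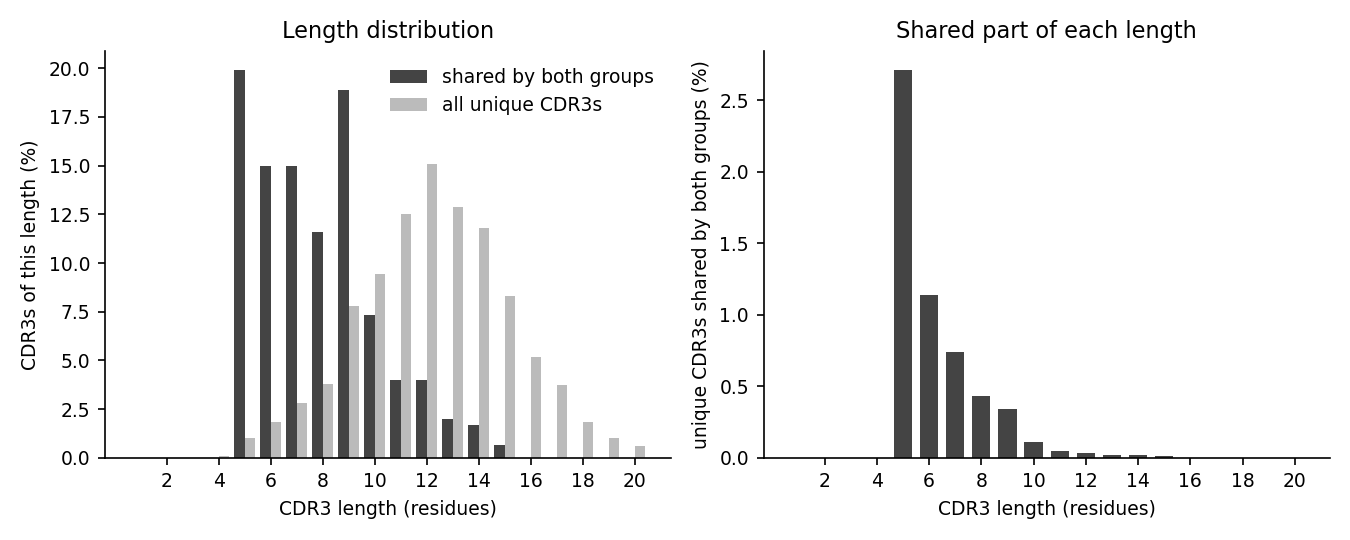
Left, percent of the 301 shared CDR3s (dark) and of all 215200 unique CDR3s (grey) at each CDR3 length in residues, and right, percent of the unique CDR3s of each length that were shared by both groups. Lengths over 20 are left out of the plot. The shared part is highest at 5 residues, with 2.71%, and 0 below 5 and above 15.

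Of the 7 shared CDR3s of 14 or 15 residues, 4 ended in WYFDF, the end that IGHJ1 encodes, and the other 3 had IGHJ2 or IGHJ4 as the main gene. A pair of 15 residues, both joined to IGHJ1 alone, had 6 and 5 reads in 4 and 5 animals and no more than 2 reads in any of them. ARMYTTDYYWYFDF had 32 reads in DNP2, 1 in DNP3, 2 in DNP5, 5 in HuD2 and 2 in HuD5. The related TRLYTTDYYWYFDF had 1 read in each of DNP2, DNP5 and HuD1 and 8 in HuD2. Both were found on either side with few reads, apart from the 32 in DNP2, and the levels of the groups overlap. Among the 25 shared CDR3s of at least 12 residues, 23 ended in FDF or FDY, 13 had IGHJ1 as the main gene and 10 IGHJ2, and their median was 7 reads.

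IGHJ genes encode the end of the CDR3. Of the unique shared CDR3s in an animal, 71.8% ± 2.53 (SD, n = 10) had IGHJ2 as the main gene, against 51.4% ± 2.83 of the other CDR3s. IGHJ4 stood at 3.06% against 16.5%, IGHJ3 at 12% against 21% and IGHJ1 at 13.1% against 11.1%. IGHJ2 was higher, and IGHJ3 and IGHJ4 lower, in 10 of 10 animals (exact sign-flip permutation test, adjusted p = 0.00233 each). IGHJ1 was higher in 8 of 10 animals (exact sign-flip permutation test, adjusted p = 0.0318), and this call was lost without DNP1, DNP5, HuD1, HuD2, HuD3 or HuD5, with differences of 0.0640 to 2.45 percentage points in those 6 settings.

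Part of the IGHJ pattern goes with length. When the other CDR3s of each animal were weighted to the lengths of the shared ones, IGHJ2 differed by 0.513 percentage points (exact sign-flip permutation test, adjusted p = 0.665). At equal lengths IGHJ1 was 9.02 points higher, IGHJ3 4.18 points lower (a difference of −4.18) and IGHJ4 lower as well (−5.36), with adjusted p of 0.00257, 0.00488 and 0.00257 by exact sign-flip permutation. Over the 301 shared CDR3s, the main gene was IGHJ2 for 212, IGHJ1 for 40, IGHJ3 for 38 and IGHJ4 for 11. Those with IGHJ1 had a mean length of 10.5 residues, against 7.50 with IGHJ2, 6.97 with IGHJ3 and 6.91 with IGHJ4.

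The ends of the shared CDR3s show the same genes. TT opened 34 of them (11.3%, against 6.85% of all CDR3s). DY closed 188 (62.5% against 36%) and GDY closed 27 (8.97% against 1.30%). FDF, from IGHJ1, closed 40 (13.3% against 9.89%), and MDA, from IGHJ4, closed 9 (2.99% against 12.1%). These shares over all sequences are descriptions.

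Shared CDR3s differed from the others in nearly all amino acids. Of the 25 measures of IGHJ genes, amino acids and net charge, 24 passed the threshold, all but histidine, at 2.67% against 2.50% (exact sign-flip permutation, adjusted p = 0.184). Cysteine is among the 24, but no shared CDR3 held it. Its difference could only be negative, so that this call is no evidence. Tyrosine, the commonest residue of CDR3 loops, took 20.2% ± 0.664 (SD, n = 10) of the residues against 17.5% ± 0.795. Aspartate took 13.1% against 9.81%, arginine 11.8% against 8.58%, alanine 12.4% against 10.7% and phenylalanine 9.41% against 6.80%. All 5 were higher in 10 of 10 animals (exact sign-flip permutation, adjusted p = 0.00233 each). Glycine was higher as well, at 10.1% against 9.62%, and tryptophan in 8 of 10 animals, at 2.94% against 2.67% (exact sign-flip permutation, adjusted p = 0.00233 and 0.0407). The call of glycine was lost without DNP4 or HuD3, with 0.135 and 0.309 points, and that of tryptophan without DNP1, DNP3, HuD2, HuD3 or HuD5, with 0.00141 to 0.276 points.

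Lower were the aliphatic residues larger than alanine, proline, methionine and several polar or charged residues. Serine took 2.71% against 5.30%, proline 1.21% against 3.06%, isoleucine 0.140% against 1.93%, valine 1.45% against 3.09%, leucine 1.42% against 2.81% and methionine 0.376% against 1.72%. Threonine (5.28% against 6.59%), lysine (0.228% against 0.921%), glutamate (1.34% against 1.98%), glutamine (0.794% against 1.04%) and asparagine (2.44% against 2.91%) were lower too. Of the 11, asparagine was lower in 9 animals and the others in 10 (exact sign-flip permutation, adjusted p = 0.0111 for asparagine and 0.00233 for each other). Asparagine did not pass without DNP2, DNP5 or HuD2, at −0.202, −0.36 and −0.312 points. No shared CDR3 held a cysteine, which 5.16% of all CDR3s did.

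At equal lengths 22 of the 25 measures passed, again with cysteine, which no shared CDR3 held. Aspartate was then 3.12, arginine 2.18, phenylalanine 4.29 and tyrosine 6.57 percentage points higher in shared CDR3s (exact sign-flip permutation, adjusted p = 0.00257 each). Alanine and glycine no longer passed, at −0.337 and 0.0208 points (exact sign-flip permutation, adjusted p = 0.272 and 0.869). Alanine is the first residue of most CDR3s. Net charge, the number of lysines and arginines minus aspartates and glutamates, was −0.183 against −0.277 per CDR3, and it changed direction at equal lengths, where the difference was −0.0454 (exact sign-flip permutation, adjusted p = 0.00257).

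**Figure D3:**
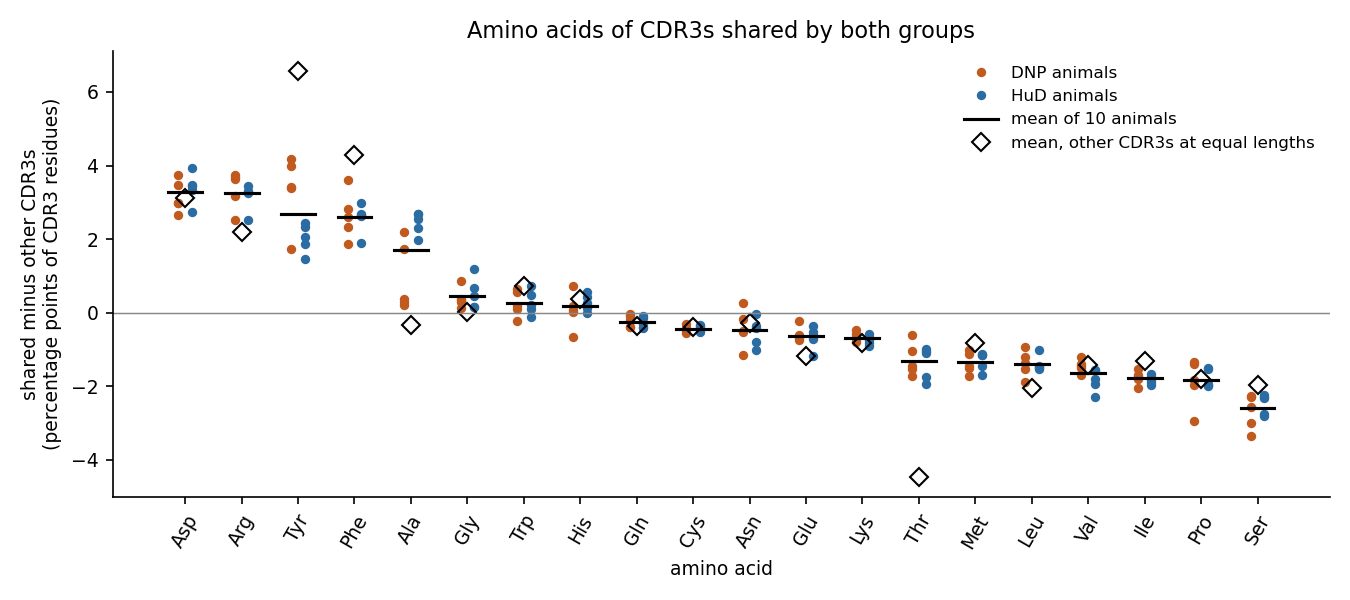
Percent of CDR3 residues in shared minus other CDR3s of the same animal, in percentage points, for each amino acid (points, DNP animals orange and HuD animals blue; black line, mean of 10 animals; diamond, mean with the other CDR3s weighted to the lengths of the shared ones). Aspartate, at 3.27 points, is the highest and serine, at −2.59, the lowest, and the diamond of alanine lies below 0.

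The IGHV gene encodes most of the variable domain and the first residues of the CDR3. Shared CDR3s were most often joined to genes of the IGHV5 family, as were the other CDR3s. IGHV5-25 was the main gene of 11.7% ± 4.88 (SD, n = 10) of the unique shared CDR3s of an animal, against 11.2% ± 3.75 of the others. IGHV5-20 (8.66% against 9.19%), IGHV5-7 (8.31% against 7.82%), IGHV5-29 (7.31% against 6.86%), IGHV5-22 (6.58% against 6.77%), IGHV3-1 (4.25% against 4.16%) and IGHV5S13 (3.85% against 4.86%) did not pass the test. IGHV5-31 stood at 6.93% against 8.34% and did not pass either (exact sign-flip permutation, adjusted p = 0.0844), but did at equal lengths (−1.45 points, adjusted p = 0.0226 by exact sign-flip permutation), as did IGHV5-20 (−2.03 points, adjusted p = 0.0422 by exact sign-flip permutation).

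Of 81 IGHV genes, 11 passed the threshold (13.6%). For 7 of the 11 no shared CDR3 had the gene in any animal, so that a difference could only be negative and these 7 calls are no evidence, which leaves 4 genes of the 65 that any shared CDR3 had. IGHV4-2 was joined to 6.01% ± 1.71 (SD, n = 10) of the shared CDR3s against 2.64% ± 1.53 of the others, and IGHV6-6 to 2.83% ± 1.03 against 0.745% ± 0.333. Both were higher in 10 of 10 animals (exact sign-flip permutation, adjusted p = 0.0226 each). At equal lengths IGHV4-2 stayed 3.11 points higher (exact sign-flip permutation, adjusted p = 0.0226), while IGHV6-6 turned to −0.684 points (exact sign-flip permutation, adjusted p = 0.0982). Neither passed among CDR3s with 1 read in the animal, at 1.77 and 0.846 points (exact sign-flip permutation, adjusted p = 0.101 and 0.199).

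The other 2 of these 4 genes were lower in shared CDR3s. IGHV5S10 stood at 1.37% against 3.23% and IGHV2-63 at 0.212% against 0.879% (exact sign-flip permutation, adjusted p = 0.0288 each), both lower in 9 of 10 animals. The call of IGHV5S10 was lost without DNP1, DNP3, DNP4, HuD2 or HuD4, and that of IGHV2-63 without DNP1, DNP2, DNP3, HuD2 or HuD4 and at equal lengths (exact sign-flip permutation, adjusted p = 0.0527). The 7 genes without a shared CDR3, among them IGHV8-20, IGHV2S18, IGHV2S13, IGHV7-6, IGHV1-32 and IGHV10-10, were the main gene of no shared CDR3 in any animal and of 0.0304% to 0.0654% of the others.

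IGHV4-2 is the gene of a family within the shared CDR3s, which was picked out after its values were seen. Of the 15 shared CDR3s with IGHV4-2 as the main gene, 9 form a group in which each differs from another by 1 residue. They start with VRE or ARE, end in GVDY and vary in the pair of residues between.
IGHV4-2 group, 173 reads in 9 animals: VREAFGVDY.
IGHV4-2 group, 156 reads in 9 animals: VREELGVDY.
IGHV4-2 group, 68 reads in 8 animals: VREEFGVDY.
IGHV4-2 group, 66 reads in 9 animals: VREDLGVDY.
IGHV4-2 group, 60 reads in 7 animals: AREAFGVDY.
IGHV4-2 group, 56 reads in 5 animals: VREDRGVDY.
IGHV4-2 group, 42 reads in 4 animals: VRERLGVDY.
IGHV4-2 group, 31 reads in 7 animals: AREEFGVDY.
IGHV4-2 group, 12 reads in 6 animals: AREDLGVDY.
IGHV4-2 took 66.7% to 94.1% of the reads of each, and IGHJ2 was the main IGHJ gene of all 9. Summed over the group, 16, 69, 1, 104 and 83 reads fell in DNP1 to DNP5 and 73, 9, 57, 147 and 105 in HuD1 to HuD5. In RPM these are 115, 557, 16.5, 400.3 and 906 in the DNP and 467, 40.1, 339, 798 and 506 in the HuD animals, and the groups overlap. Every animal held the group, with DNP3 and HuD2 lowest.

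IGHV6-6 was the main gene of 9 shared CDR3s with a mean length of 5.78 residues. AWTGY and AWPGD, the only shared CDR3s that start with AW, were both of this gene, with 98.0% and 98.7% of their reads. AWTGY had 8, 2, 0, 2 and 0 reads in DNP1 to DNP5 and 16, 8, 4, 5 and 6 in HuD1 to HuD5. It was found in 8 animals at low and overlapping levels, with an evenness of 0.797. AWPGD had 416 reads in DNP1, 30 in DNP5, 2 in HuD2 and 1 in HuD3, so that 89.7% of its RPM came from DNP1.

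The commonest pairs of main genes were IGHV5-25 with IGHJ2 for 30 shared CDR3s, IGHV5-20 with IGHJ2 for 19, and IGHV5-29, IGHV5-31 and IGHV5-7 with IGHJ2 for 16 each. IGHV4-2 was paired with IGHJ2 in 14 of its 15. With IGHJ1 the commonest partner was IGHV5-7, for 8. IGHD names rest on few bases in a short CDR3. IGHD4-3 was the commonest main name, for 52 shared CDR3s, followed by IGHD1-11 for 47, IGHD1-1 for 32 and IGHD5-1 for 28.

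Most shared CDR3s were read with several IGHV genes. The number per CDR3 ranged from 1 to 36 with a median of 7, and the main gene took a median of 39.0% of the reads. IGHJ was far more constant, as 151 shared CDR3s had 1 IGHJ gene and the main one took a median of 100% of the reads. ARARGYFDY, AYYDGSYYFDY and TYYYSGDYWYFDF, the 3 with 1 IGHV gene, were named after their values were seen. An IGHV gene was common to both groups for 211 shared CDR3s, and 24 had a gene that was read in every animal that held them.

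Among CDR3s with at least 10 reads in the animal, the number of IGHV genes at equal reads did not set shared CDR3s apart from the others. Only 12 of the 154 shared CDR3s found in HuD3, the fewest, to 31 of the 214 in DNP4, the most, had that many reads. The comparison says nothing about the rest. In 10 reads of a CDR3 from 1 animal, 3.71 ± 0.927 genes (SD, n = 10) were expected for shared CDR3s and 3.64 ± 0.869 for the others. The difference was 0.0789 ± 0.320 (SD, n = 10), and it was positive in 5 of 10 animals (exact sign-flip permutation, p = 0.471). At 5 reads per CDR3 it was 0.139 (exact sign-flip permutation, p = 0.00977) and without DNP5 0.233 (exact sign-flip permutation, p = 0.0273), while it was −0.0503 at 20 reads and −0.0368 with reads that name 1 IGHV gene.

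The 5 shared CDR3s with most IGHV genes in 10 reads pooled over animals all ended in IGHJ2 or IGHJ3. ARDLDY had 9 genes, ARGGYYFDY 8.85, ARQDY 8.85, ARGDWFAY 8.55 and ARGNYFDY 8.36, against a median of 5.63 over the 192 shared CDR3s with at least 10 reads. ARDLDY had 2 and 4 reads in DNP1 and DNP2 and 1, 2 and 1 in HuD1, HuD2 and HuD4. Its 10 reads thus named 9 different genes, and none of them was read in both groups. The other 4 had 11 to 15 reads in 5 to 8 animals and no more than 5 in any of them.

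At the other end stood CDR3s with nearly 1 gene. ARDYSGGGFAY was joined to IGHV1-43 in 98.7% of its reads, with 38 and 3 reads in DNP3 and DNP5 and 1, 8, 49 and 58 in HuD1, HuD3, HuD4 and HuD5. In RPM these are 627 and 32.7 in the DNP and 6.4, 47.6, 266 and 279.6 in the HuD animals, so that the groups overlap. A whole variable domain with this CDR3 was read, without any difference in amino acids, in DNP3, HuD1, HuD3, HuD4 and HuD5, with 6, 1, 2, 21 and 13 reads. None of its 99 reads outside HuD5, the animal with most of its reads, carried a tag that was read with it in HuD5. Tags of DNP3 were not compared in this way.

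Identical whole variable domains were otherwise rare between the groups. Of 16112 different domains with a shared CDR3, 45 were read in both groups, and these belonged to 41 of the 301 CDR3s. The widest, found in 5 animals each, were that of ARDYSGGGFAY and those of AWTGY and ARGFDY with IGHV6-6. That of AWTGY had 2 reads in DNP2 and 10, 3, 1 and 1 in HuD1, HuD2, HuD4 and HuD5, and that of ARGFDY 1 read in DNP4 and 1, 2, 1 and 2 in HuD1 to HuD4. ARSGRD with IGHV2-6 had 3 and 2 reads of 1 domain in DNP1 and DNP5 and 96 and 14 in HuD2 and HuD4.

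The nucleotides behind some shared CDR3s could be compared as well, since the tag starts with 10 bases from near the CDR3. In reads with the commonest 6 bases after that section, 50.5% of all, 71 shared CDR3s of at least 9 residues had sections in both groups. A section was common to both groups for 52 of them, and for 34 the most frequent section was the same. Sections are shown in lower case, 5′ to 3′ as the tag gives them, with capitals where a base differs from the most read section of the same CDR3.
First section with this CDR3, 445 reads in 7 animals (ATHNSGYFDY): cataattcgg
Second section with this CDR3, 52 reads in HuD5 (ATHNSGYFDY): caCaattcgg
First section with this CDR3, 18 reads in 4 animals (ARDYSGGGFAY): tacagtggtg
Second section with this CDR3, 11 reads in HuD5 (ARDYSGGGFAY): tacagCggtg
Another section with this CDR3, 4 reads in DNP3 (ARDYSGGGFAY): tacagtggCg
The first section of ATHNSGYFDY had 22 reads in DNP and 423 in HuD animals, and that of ARDYSGGGFAY 3 and 15. ARGGYYFDY, with most of its genes used once, had 6 different sections in 9 reads.

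NSGY in the centre marks a further set, which no naming rule picked out, so that its shares are a description. Of the other inner stretches counted, HNSGY and YNSGY, which hold NSGY, were more frequent in shared CDR3s as well. Others were less frequent, with NNYG in 0% of the shared CDR3s against 0.371% of all, YYG in 0.997% against 5.18% and GY in 17.6% against 24.9%. NSGY was held by 11 shared CDR3s (3.65%, against 0.946% of all), and IGHD4-3 was the main IGHD name of all 11 and IGHJ2 the main IGHJ gene of 10. They took 4018 reads, 15.6% of those of the shared CDR3s, of which 2541 were ARWYNSGYYFDY in DNP3. Without DNP3 they took 1477 reads, 6.77%. ATHNSGYFDY had 1, 24, 0, 0 and 1 reads in DNP1 to DNP5 and 415, 2, 2, 5 and 116 in HuD1 to HuD5. HuD1 and HuD5 were high, and DNP2 exceeded HuD2, HuD3 and HuD4, so that the groups overlap. ASHNSGYFDY had 258 reads in DNP2, 1 in DNP5, 79 in HuD2 and 39 in HuD3. ARHNSGYFDY had 1, 19, 0, 2 and 5 reads in the DNP and 22, 64, 22, 64 and 10 in the HuD animals. ARHNSGYFDY differs by 1 residue from both and was found in 9 animals without a single high one.

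Relatives of this kind were counted among the shared CDR3s alone, without a like count for other CDR3s, so that the numbers are a description. Of the 301 shared CDR3s, 232 differed by 1 residue from another shared one, and they fell into 28 groups. The largest had 50 members of 5 residues, with 10 of them joined most often to IGHV5-20 and 44 to IGHJ2. It holds ARPDY, ARGDY and TTGDY.

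Shared CDR3s took a small part of the reads of each animal. In DNP1 to DNP5 they made up 3.14%, 1.33%, 6.46%, 1.05% and 3.51% of the productive reads, and in HuD1 to HuD5 1.00%, 0.908%, 0.397%, 2.14% and 0.784%. The widest 95% Wilson interval was that of DNP3, 6.26% to 6.66%. DNP3, DNP5 and DNP1 were the highest, and HuD4 exceeded DNP2 and DNP4, so that the groups overlap. Means were 3.10% ± 2.17 (SD, n = 5) and 1.05% ± 0.653 (SD, n = 5), given without a test because presence in these animals chose the CDR3s. When the rule was applied without the animal measured, the mean over all 10 was 1.39%, against 2.07% with it.

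In DNP1, DNP3, DNP5 and HuD4 the most read shared CDR3 of the animal took 53.7% to 70.9% of the shared reads, and in the other 6 animals it took 12.4% to 31.5%. Without it, 1.45%, 1.12%, 2.27%, 0.717% and 1.24% were left in the DNP and 0.724%, 0.793%, 0.348%, 0.623% and 0.628% in the HuD animals. This CDR3 was ARPDY in DNP1 and DNP4, ASHNSGYFDY in DNP2, ARWYNSGYYFDY in DNP3 and ARLRLEWEVRAMDA in DNP5. In HuD1 to HuD5 it was ARGPPFDY, ARSGRD, TRGPPFDY, ARHWGY and ARLGDY. The 10 most read shared CDR3s held 57.2% of all their reads, while 145 of the 301 had no more than 5 reads in any animal.

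**Figure D4:**
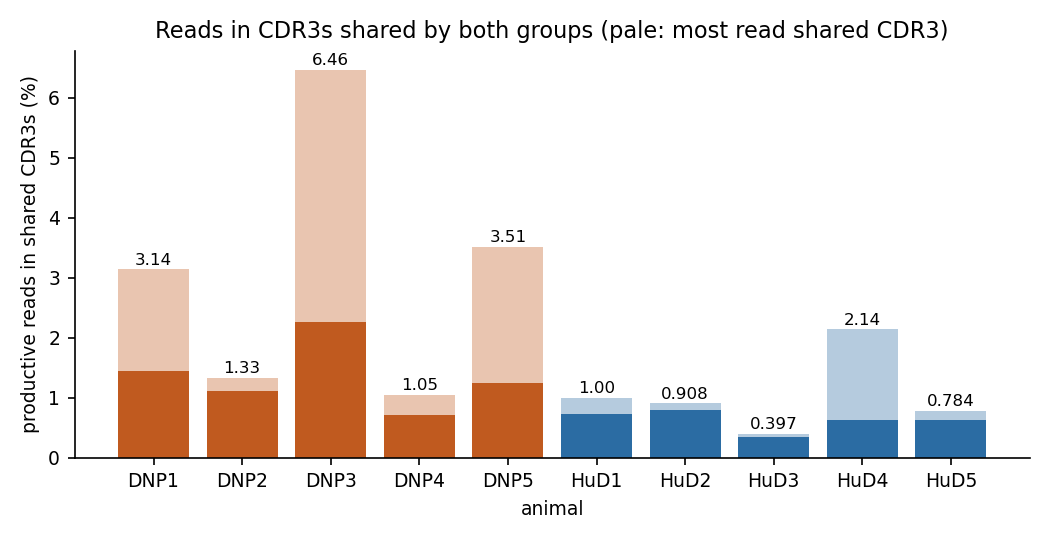
Percent of the productive reads of each animal (DNP orange, HuD blue) that fell in CDR3s shared by both groups, with the value above each bar. The pale part is the most read shared CDR3 of that animal, which takes more than the rest together in DNP1, DNP3, DNP5 and HuD4.

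A high number of reads was mostly that of 1 animal. The evenness of RPM over the 10 animals, 0 for a single animal and 1 for equal levels, had a median of 0.58 and ranged from 0.0104 to 0.973. Animals without a read count as 0 RPM, so that a CDR3 found in few animals cannot come near 1. The animal with the highest RPM took a median of 42.9%, over 50% for 113 shared CDR3s and over 90% for 13. It was a DNP animal for 195 and a HuD animal for 106, and 1 read weighs more in the shallow DNP3 and DNP5. In 115 shared CDR3s at least 1 animal had 10 or more reads, in 34 at least 1 animal of each group, and with 100 or more reads these numbers were 25 and 2. Both of the latter, ARWGDY and TRENWVLDY, were named after their values were seen. Evenness among the shared CDR3s with at least 50 reads had a median of 0.456.

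**Figure D5:**
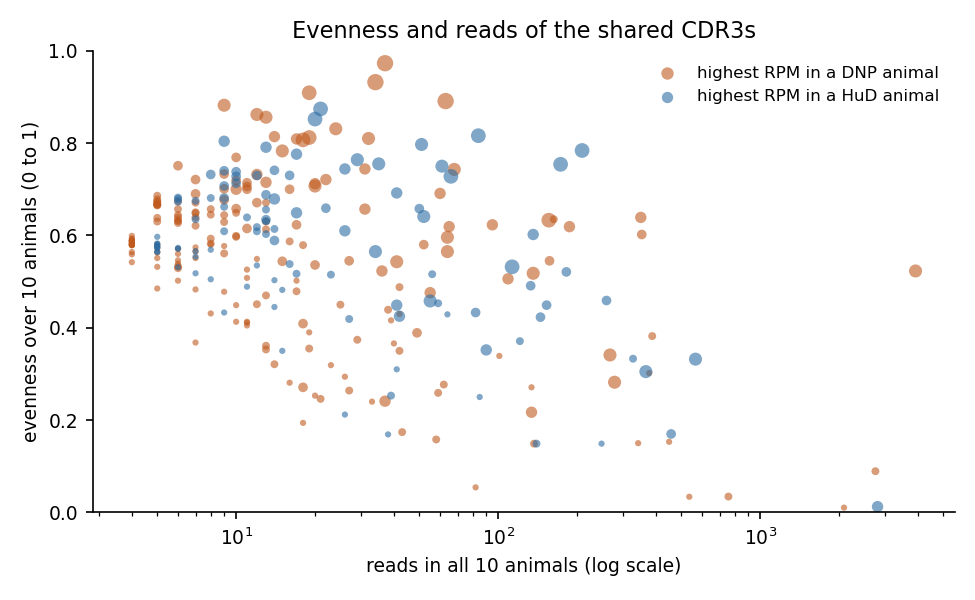
Evenness of RPM over the 10 animals against the reads of each of the 301 shared CDR3s (log scale), coloured by the group of the animal with the highest RPM and with larger points for CDR3s found in more animals. The points spread from 0.0104 to 0.973, and those of the 4 CDR3s with most reads lie at 0.0104, 0.0125, 0.0893 and 0.523.

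The 3 CDR3s found in all 10 animals were among the most even, which is partly fixed in advance, since absence from an animal lowers the highest possible evenness. TTGDY had 2, 2, 2, 4 and 4 reads in DNP1 to DNP5 and 3, 6, 5, 5 and 4 in HuD1 to HuD5, an evenness of 0.973. No animal stood out, and its means were 24.5 ± 13.2 RPM in the DNP and 24.4 ± 4.87 RPM in the HuD animals (SD, n = 5 each). ARHWYFDF had 3, 3, 2, 6 and 6 reads in the DNP and 2, 3, 2, 3 and 4 in the HuD animals. After scaling, 21.5 to 65.5 RPM in the DNP lay above 11.9 to 19.3 RPM in the HuD animals without overlap, on 2 to 6 reads each. ARGDY had 16, 3, 3, 16 and 1 reads in the DNP and 3, 6, 3, 3 and 9 in the HuD animals, which overlap. All 3 were read with many IGHV genes, 15, 12 and 20.

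ARPDY had the most reads of all shared CDR3s. It had 2352, 104, 397, 858 and 171 reads in DNP1 to DNP5 and 1, 27, 4, 0 and 0 in HuD1 to HuD5. In RPM these were 16867, 840.1, 6546, 3302 and 1866 in the DNP and 6.4, 120.2, 23.8, 0 and 0 in the HuD animals, so that the lowest DNP animal was above the highest HuD animal. The means were 5884 ± 6506 and 30.1 ± 51.3 RPM (SD, n = 5 each). IGHV5-7 was its main gene in all 5 DNP animals, with 51.4% to 75.5% of the reads. In the HuD animals the main gene was IGHV2S61 in HuD1, IGHV2-1 in HuD2 and IGHV5-25 in HuD3, and no whole domain was common to both groups. Of its 1562 reads outside DNP1, 708 carried a tag that was also read in DNP1, and the part of tags in these levels was not tested.

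The difference in ARPDY depended on the model. The edgeR quasi-likelihood fit gave a log2 fold change, HuD over DNP, of −7.57 ± 4.73 with an adjusted p of 0.158. The value after ± is an approximate SE, the size of the fold change over the square root of the F statistic. With limma on log2(RPM + 1) it was −8.91 (adjusted p = 7.92e-07) and with DESeq2 −6.72 (adjusted p = 0.00730). Close relatives of ARPDY with H, A or D as the last residue, which are not shared by both groups, had 310, 506 and 200 reads, all of them in DNP animals. They were found in 5, 4 and 4 DNP animals and no HuD animal, and were picked out after their values were seen. Of the 13 relatives of at least 20 reads that differ from ARPDY at 1 residue and are not shared, 9 had no HuD read. ARPDF had 44 reads in DNP and 25 in HuD animals, ARPNY 1 and 69, ARPSY 0 and 29 and VRPDY 31 and 1.

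The other most abundant shared CDR3s each rested on 1 or 2 animals. ARWYNSGYYFDY had 2541 reads in DNP3, 6 in DNP4, 202 in DNP5 and 1 each in HuD1 and HuD3. ARLRLEWEVRAMDA had 2077 reads in DNP5, 8 in DNP2 and 1 each in HuD1 and HuD2. Both were thus found in HuD animals by single reads. A whole domain of ARLRLEWEVRAMDA with IGHV3-1 was identical in DNP5, DNP2, HuD1 and HuD2, with 1595, 4, 1 and 1 reads. Of its 10 reads outside DNP5, 5 carried a tag that was also read in DNP5.

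ARHWGY, with IGHV5-25 most often, had 2795 reads in HuD4, 1 each in DNP2, DNP4, DNP5 and HuD5 and 2 each in HuD1 and HuD3. ARWVYYFDY, with IGHV3-1, had 714 reads in DNP3, 39 in DNP4 and 1 each in HuD3, HuD4 and HuD5. TTDLAY, with IGHV5-20, had 530 reads in DNP1 and 2 each in DNP5, HuD1 and HuD3. In these 3, 98.6% to 99.7% of the RPM fell in 1 animal and the others overlap.

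ARGPPFDY was high in 1 HuD animal and ARWGDY in 1 animal of each group. ARGPPFDY had 432 reads in HuD1, 20 in DNP3, 2 in DNP4 and 1 each in HuD3, HuD4 and HuD5. Its relative TRGPPFDY, with T as the first residue, had 37 and 174 reads in DNP1 and DNP4 and 38, 2, 83, 3 and 13 in HuD1 to HuD5. ARWGDY had 26, 4 and 188 reads in DNP1, DNP4 and DNP5 and 9 and 160 in HuD4 and HuD5, so that both groups held an animal with a high level.

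Reads of a shared CDR3 outside its top animal, here the one with most of its reads, seldom had a whole domain of that animal. There were 6703 such reads, 306 of which (4.57%) had a domain that was also read in the top animal. Domains also differed within an animal, as the 2803 reads of ARHWGY, all but 8 of them in HuD4, held 1968 different domains, so that a different domain does not show another heavy chain. A tag that was also read with this CDR3 in the top animal was carried by 914 (13.6%). The tag holds bases near the CDR3 and 6 random bases, so that tags of different molecules with the same CDR3 can coincide, and the part of this in the 914 reads was not tested.

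Read numbers were compared between the groups over all CDR3s with at least 10 reads in all and found in at least 2 animals. No CDR3 of 1658 passed the edgeR quasi-likelihood test after Benjamini-Hochberg adjustment (0%), and none of the 192 shared CDR3s among them. The other 109 shared CDR3s had fewer than 10 reads. At an unadjusted p under 0.05 the edgeR fit held 966 of the 1658 (58.3%) and 2 of the 192. The common dispersion was 9.4, far above that of usual count data, and the estimates for single CDR3s ran from 5.09 to 14.9. The lowest adjusted p of any CDR3 was 0.0575. The other fits gave other numbers, and that of limma takes the variance of a CDR3 largely from all CDR3s together. With limma 11 of 1658 passed (0.663%), 5 of them with DNP higher (0.302%), and ARPDY, among the latter, was the 1 shared CDR3. With DESeq2 50 of the 255 CDR3s with an adjusted p passed (19.6%), among them 3 of 52 shared ones. ARPDY was higher in DNP, as were 5.49% of the 255, and TRENYYSGDY and TTWFAY were higher in HuD, as were 14.1%. Among CDR3s with at least 50 reads in all and found in at least 4 animals, 51 of 130 passed in edgeR (39.2%). Of the 66 shared ones 7 passed (10.6%), each with 89.7% to 99.7% of its RPM in 1 animal.

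Presence in both groups was required, which limits how far a shared CDR3 can differ, so these shares are no result about the shared CDR3s. The median fitted log2 fold change was −0.550 for the 192 and −1.53 for all 1658, and 41.7% and 44.5% of them were above 0. The lowest DNP value lay above the highest HuD value for 4 shared CDR3s and for 6 of the 1658 (0.362%). The 4 were ARPDY, ARHWYFDF, ARHYYDGSYYFDY and ATGSFDY. The reverse order was seen for none of the shared CDR3s and for 13 of the 1658 (0.784%). ARHYYDGSYYFDY had 13, 4, 3, 67 and 4 reads in the DNP and 2 each in HuD4 and HuD5. ATGSFDY had 2, 5, 1, 86 and 12 reads in the DNP and 1 and 2 in HuD3 and HuD4. In both, the lower DNP animals had few reads, and DNP4 was the highest.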

How the data were processed

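Heavy chain sequences of 10 rats, 1 library each in 1 sequencing run, were analysed. The authors joined the 2 reads of each pair in PEAR, merged those with equal tags in MIGEC (minimum UMI count 1) and annotated the result with High-VQuest. The sources used here give neither their versions nor the germline release. The deposited files list 1 collapsed sequence per line with a count of its sequenced copies. Each productive line was used as 1 read, 60647 to 259834 per animal, and the deposited counts of copies only in alternatives. The CDR3, the IGHV, IGHJ and IGHD names and the call of a productive sequence are the deposited ones. Of the productive reads, 14.1% named more than 1 IGHV gene, and the first name was taken.

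Reads per CDR3 were fitted with edgeR 4.0.16 (quasi-likelihood test, library size the productive reads, no scaling factors) in R 4.3.3, and with limma 3.58.1 on log2(RPM + 1) and DESeq2 1.42.0, adjusted by Benjamini-Hochberg at a threshold of 0.05. Properties were compared within animals by exact two-sided sign-flip permutation over 10 animals (smallest p 0.00195), with adjustment over 25 measures and over the 81 IGHV genes with at least 100 reads. Python 3.11.15, pandas 2.3.3, scipy 1.17.1 and networkx 3.6.1 were used, and figures were drawn with matplotlib 3.10.9. The scripts were tested on simulated data. Evenness is the Shannon entropy of RPM over the log of 10 animals. Intervals cover counting error only.

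CDR3s named by rule were the 10 with the highest mean RPM, those in all 10 animals, up to 10 per direction past the edgeR threshold (none), the 5 longest, the 5 with most IGHV genes in 10 reads and 5 with a whole domain in most animals. IGHV genes named were the 10 most used and up to 10 past the threshold, with all IGHJ genes and amino acids past it. The shared CDR3s, lists and tests were chosen with earlier results of these data known. A number in 2 groups does not mark the same animal, and same-numbered animals did not vary together (correlations of deviations −0.0237 to 0.0259), so the fit has no block.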

Additional observations from a re-analysis of the deposited data

Results flagged for a closer look

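The cases below are descriptions, as RPM are skewed and a CDR3 can reach a high mean RPM through 1 animal. In several groups of 5 animals the highest or lowest animal stood far from the other 4. Normally distributed values meet this rule in about 1 group of 20, a rate that was not computed for RPM. Among the CDR3s with the highest mean RPM, the rule was met by ARWYNSGYYFDY in DNP3 (41898 RPM), ARLRLEWEVRAMDA in DNP5 (22663 RPM), ARHWGY in HuD4 (15177 RPM), ARWVYYFDY in DNP3 (11773 RPM), TTDLAY in DNP1 (3801 RPM) and AWPGD in DNP1 (2983 RPM). In the same way ATHNSGYFDY stood apart in DNP2 (194 RPM) and HuD1 (2656 RPM), ARGPPFDY in DNP3 (329.8 RPM) and HuD1 (2764 RPM), and ARWGDY in DNP5 (2051 RPM) and HuD5 (771 RPM). ARPDY stood apart in HuD2 (120.2 RPM), on 27 reads, and ARHWYFDF, found in all 10 animals, in DNP5 (65.5 RPM), on 6 reads.

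Among the differences between shared and other CDR3s of an animal, DNP2 stood apart for glutamate (−0.236 percentage points), HuD2 for leucine (−1.01) and HuD3 for arginine (2.52).

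The difference between shared and other CDR3s was not the same in both immunogen groups for 3 amino acids at an unadjusted p under 0.05. Alanine was 0.948 percentage points higher in shared CDR3s of DNP and 2.43 points of HuD animals (exact permutation p = 0.0159), valine differed by −1.45 and −1.83 points (exact permutation p = 0.0397) and tyrosine by 3.34 and 2.03 points (exact permutation p = 0.0397). Over the 25 measures none passed, with an adjusted p of 0.331 for each of the 3. The same held for 2 named IGHV genes, IGHV5S10 with −2.96 and −0.751 points (exact permutation p = 0.0159, adjusted p = 0.257) and IGHV2S18, which no shared CDR3 had, with −0.115 and −0.0116 points (exact permutation p = 0.0317, adjusted p = 0.367).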

How the results depend on the processing

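Of the occurrences of shared CDR3s, 48.5% rest on 1 read. The number of shared CDR3s, 301, became 62 with at least 2 reads in an animal, 87.2 at equal reads, 76 with at least 3 animals of each group and 199 to 275 without 1 animal. After seeing the data, it was also counted from reads with at least 2 copies (3) and without reads whose tag was read with the same CDR3 in another animal (298). The difference in length stayed between −4.56 and −4.34 residues under all 14 alternatives run. Between 19 and 24 of the 25 measures of IGHJ genes, amino acids and charge passed, with cysteine, which no shared CDR3 held, among the 25. The read share was 3.33% with copies as the unit and 1.39% with the rule applied without the animal measured.

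CDR3s called between the groups, 0 in the edgeR fit, were 51 among CDR3s with at least 50 reads and 4 animals, 11 with limma and 50 with DESeq2, where 122 and 139 CDR3s had an unadjusted p under 0.05. They were 0 with TMM factors, no minimum number of reads, copies as the unit (added after seeing the data) and without 1 animal. With the replicate number as a block, 0 were called as well. The numbers do not pair the animals, as 1 of 5 animals correlated best with its own number.

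IGHV genes per CDR3 at equal reads differed by 0.139 at 5 reads, −0.0503 at 20 reads, −0.0368 with reads that name 1 IGHV gene and 0.0157 to 0.233 without 1 animal. Past the threshold were 17 IGHV genes at equal lengths and 9 to 18 without 1 animal, against 11, and among genes that any shared CDR3 had they were 10 and 2 to 6, against 4. In the left-out animals, the HuD minus DNP difference was 1.40 to 16.5 percentage points without 1 animal.

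Several directions turned. At equal lengths (added after seeing the data) alanine turned to −0.337 points, net charge to −0.0454, IGHV6-6 to −0.684 and IGHV5-22 to 1.5. Glutamate turned to 0.706 with at least 2 reads for sharing, and net charge to −0.0155 with CDR3s of at least 2 reads. IGHV5-25 (−0.692) and IGHV5S13 (0.85) turned with CDR3s of 1 read, and IGHV5-25 (−0.190) and IGHV3-1 (−0.0511) with reads that name 1 gene. ARWGDY had a log2 fold change of 0.00770 with TMM. Without 1 animal, fold changes ranged from −3.81 to 7.62 for ARGPPFDY and −5.11 to 1.68 for ARWGDY, and differences from −0.112 to 0.995 for IGHV5-25, −1.58 to 0.0397 for IGHV5-20, −0.75 to 1.69 for IGHV5-7, −0.330 to 1.29 for IGHV5-29, −0.655 to 0.82 for IGHV5-22 and −1.06 to 0.532 for IGHV3-1. In the main comparison none of these IGHV genes but IGHV6-6 was called, though IGHV5-20 passed at equal lengths. The cause was not tested.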
